A study of Homo sapiens with 6 samples.

Results

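The genes described here are the 2 demethylases that remove N6-methyladenosine (m6A) from RNA, *FTO* and *ALKBH5*, and the 5 human genes with a YTH domain, *YTHDF1*, *YTHDF2*, *YTHDF3*, *YTHDC1* and *YTHDC2*. They were picked out by symbol, and all 7 are rows of the deposited tables, which hold 20020 genes. The cells were 786-O, a human line established from clear cell renal carcinoma, and RNA immunoprecipitation sequencing (RIP-seq) gave 3 libraries of RNA recovered with IGF2BP2 (RIP) and 3 libraries of input RNA. No treatment, transgene or knockdown is given for any library. The comparison asks how far the mRNAs of the m6A erasers and YTH readers were over- or under-represented with IGF2BP2, itself described as an m6A reader. No mock precipitation was analysed here, so unspecific binding of RNA to antibody or beads is part of every RIP value.

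m6A is placed on mRNA by a methyltransferase complex built around METTL3 and METTL14, mostly in the cell nucleus. FTO and ALKBH5 are iron- and 2-oxoglutarate-dependent dioxygenases that take the mark off again. FTO also acts on the related methylated adenosine next to the mRNA cap, and its gene is known from genetic studies of body weight. The YTH domain binds m6A in an aromatic pocket. The YTHDF proteins are close paralogs that act in the cytoplasm, where YTHDF2 recruits the CCR4-NOT deadenylase to methylated mRNA. YTHDC1 is nuclear and works in splicing and export of mRNA, and YTHDC2 is an RNA helicase needed for meiosis. The values here are of the mRNAs of these genes and show neither the amount of their proteins nor the methylation of any RNA.

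The libraries held 33872621 to 44045835 counted reads in RIP and 25773819 to 27226405 in input. Across tested genes, log2 levels of libraries of 1 kind correlated at 0.994 to 0.995, and those of a RIP with an input library at 0.917 to 0.921. All 7 markers fixed for the renal line were present, with *PAX8*, a transcription factor of renal epithelium, at 608 to 661 CPM in RIP libraries, against 439 to 463 CPM in inputs (CPM, a gene's reads scaled to its library's total). Other genes of that list were lower in RIP, such as *VIM* at 2938 to 3244 CPM in RIP and 4338 to 4556 CPM in input, and the list summed to 5657 to 6008 CPM in RIP libraries and 6194 to 6422 CPM in inputs. The 3 endothelial markers summed to 1.95 to 2.61 CPM in RIP libraries and 2.06 to 3.61 CPM in inputs, and the 3 fibroblast markers to 4.13 to 5.20 and 4.50 to 6.83, and their part in the results was not tested. Of the blood and immune markers, *CD3E*, a T cell gene, was at 0 in all 3 RIP libraries and reached at most 0.114 CPM in input. *PTPRC*, the pan-leukocyte gene, reached at most 0.264 CPM in RIP and 0.380 CPM in input. The labels do not say whether replicates came from separate cultures, and the p-values reflect only how far these libraries vary, possibly for technical reasons. In bulk input RNA, fewer cells holding a transcript and fewer copies per cell cannot be told apart, and RIP over input measures neither.

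*FTO* and *YTHDF3* mRNAs were the most enriched of the 7 in the IGF2BP2 fraction, at 3.09-fold and 2.44-fold, and *YTHDF1* followed at 1.49-fold. *YTHDC1* was 1.32-fold and *YTHDF2* 1.14-fold lower in RIP. *ALKBH5* and *YTHDC2* did not pass the test. The erasers thus fell on different sides of the threshold, the YTHDF readers went both ways, and neither YTHDC reader was enriched. Levels are CPM after TMM scaling, and calls have an adjusted p under 0.05 in edgeR's quasi-likelihood test over all 12856 genes with enough reads. All 7 genes were among those tested. With 3 enriched and 2 depleted, 5 of 7 were called, where 82.7% of all tested genes were called, 40.7% as enriched and 42.0% as depleted. In CPM the RIP libraries lay above all inputs for 3 of the 7 and below all inputs for 2, where 83.1% of tested genes had groups apart, 40.9% above and 42.2% below. In FPKM, which carry no TMM scaling, the groups of all 7 were apart, as were those of 83.6% of tested genes. The share of called genes among the 7 is thus no greater than in the transcriptome at large, and what the data describe is each gene's own position. The median log2 fold change of the 7 was -0.0046, beside -0.024 for all tested genes.

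Of the erasers, *FTO* (chromosome 16, 53703963 to 54121941 on GRCh38) had 8943, 10494 and 8083 reads in RIP libraries 1, 2 and 3, against 2345, 2414 and 2442 in inputs 1, 2 and 3. After scaling these were 256, 260 and 259 CPM in RIP and 82.6, 81.1 and 87.1 CPM in input. The groups were far apart. The coefficient of variation was 0.918% within RIP and 3.73% within input, where counting alone would give up to 2.07% at the lowest count. The RIP mean of *FTO* was 258 ± 2.37 CPM and the input mean 83.6 ± 3.12 CPM (± SD, 3 libraries each), a log2 fold change of 1.63 with an SE of 0.032 and an edgeR adjusted p of 1.70e-21. Only 3.48% of tested genes had a higher log2 fold change. RefSeq places 3 long noncoding RNA genes within the *FTO* span, *FTO-IT1* among them, none of which is a row of the count table. Whether counting used strand is not stated in the labels, and their reads cannot be told apart from those of *FTO* where they overlap its exons.

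*ALKBH5*, the other eraser (chromosome 17, 18183828 to 18209954), had 191, 181 and 191 CPM in RIP libraries 1, 2 and 3, against 188, 186 and 191 in inputs. The groups overlapped, with RIP library 2 below every input. Its means were 188 ± 5.57 CPM in RIP and 188 ± 2.63 in input, and the log2 fold change was -0.0046 (SE 0.028, edgeR adjusted p = 0.918). Counts of 5348 to 7309 reads per library put the counting error at 1.37% or less, while the coefficients of variation were 2.97% in RIP and 1.40% in input. Its call changed with the scale, since scaling by library size alone called *ALKBH5* depleted (log2 fold change -0.24, edgeR adjusted p = 6.43e-06) and enriched after the correction for gene length described below (0.11, edgeR adjusted p = 0.0114). Over 18 alternatives its adjusted p ran from 6.43e-06 to 1.

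A ratio of both erasers within each library does not depend on the scale, although it holds no length correction. Per kilobase of gene length (FPKM), the *FTO* to *ALKBH5* ratio was 0.307, 0.329 and 0.311 in RIP and 0.101, 0.10003 and 0.104 in input. The groups did not overlap, and the ratio was 3.10-fold higher in RIP (log2 difference 1.63, SE 0.037). *FTO* made up 24.0% ± 0.684 of the summed eraser FPKM in RIP and 9.23% ± 0.200 in input, and *ALKBH5* the rest. The exact permutation test gave p = 0.1, two-sided, the smallest that 3 libraries against 3 allow. The same p, and the same value after adjustment, was found for each of the 5 pairs of genes compared in this way.

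**Figure D1:**
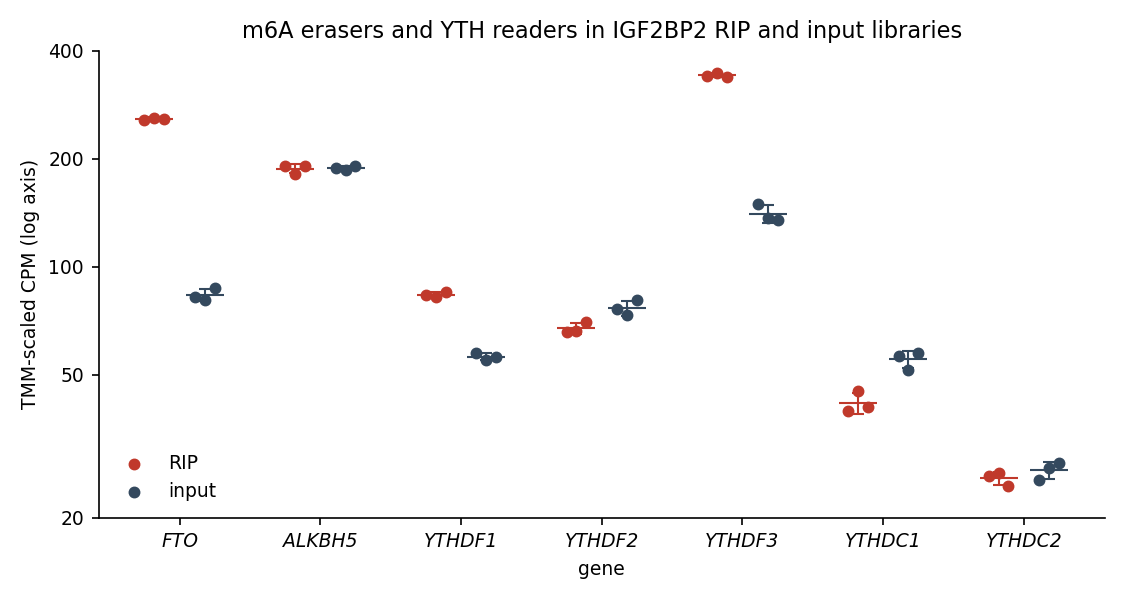
Level of each of the 7 genes in every library, as TMM-scaled CPM on a log axis, with RIP libraries in red to the left of inputs in dark blue; horizontal bars are means and error bars SDs of 3 libraries. *FTO* and *YTHDF3* stand at 258 and 342 CPM in RIP against 83.6 and 141 in input, while the groups of *ALKBH5* and *YTHDC2* overlap.

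The YTHDF readers differed from one another although their proteins are close paralogs. *YTHDF3* (chromosome 8, 63168553 to 63212788) had 11911, 14014 and 10556 reads in RIP and 4241, 4086 and 3786 in input, the most of the 7 genes in every RIP library. Scaled, it stood at 341, 348 and 338 CPM in RIP, against 149, 137 and 135 in input. Every RIP library was far above every input. The log2 fold change was 1.28 (SE 0.047, edgeR adjusted p = 3.06e-19), and 8.53% of tested genes had a higher one.

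*YTHDF1*, linked in earlier work to the translation of methylated mRNA (chromosome 20, 63195429 to 63216131), had 83.5, 82.5 and 85.1 CPM in RIP and 57.6, 54.9 and 56.3 in input. The groups did not overlap and varied by 1.55% and 2.36% as coefficients of variation in RIP and input. The log2 fold change was 0.57 (SE 0.023, edgeR adjusted p = 2.08e-11), and it did not pass a test against a change of 1.5-fold (edgeR adjusted p = 0.549). Of all tested genes 28.3% had a higher value, so this enrichment lies well inside the upper range of the transcriptome.

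*YTHDF2* (chromosome 1, 28736624 to 28769775) went the other way, with 65.8, 66.4 and 70.1 CPM in RIP, against 76.2, 73.5 and 80.8 in input. The highest RIP library lay just below the lowest input. Means were 67.4 ± 2.28 CPM in RIP and 76.8 ± 3.65 in input, a log2 fold change of -0.19 (SE 0.048, edgeR adjusted p = 0.00109). The direction held with each of 4 scalings but turned after the length correction (0.079, edgeR adjusted p = 0.137).

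Within libraries the order of the YTHDF transcripts changed. The *YTHDF1* to *YTHDF2* ratio of FPKM was 1.16, 1.14 and 1.11 in RIP and 0.692, 0.683 and 0.637 in input, above 1 in every RIP library and below 1 in every input. The *YTHDF2* to *YTHDF3* ratio was 0.359, 0.354 and 0.384 in RIP and 0.946, 0.995 and 1.11 in input. That is a 2.78-fold lower ratio in RIP (log2 difference -1.47, SE 0.077). For *YTHDF1* to *YTHDF3* the ratio was 1.64-fold lower in RIP (log2 difference -0.71, SE 0.041), at 0.415 ± 0.0123 in RIP and 0.681 ± 0.0266 in input. *YTHDF3* thus took 56.2% ± 0.874 of the summed YTHDF FPKM in RIP and 37.1% ± 1.502 in input, while *YTHDF2* took 20.5% ± 0.597 and 37.7% ± 1.56. The share of *YTHDF1* was 23.3% ± 0.349 in RIP and 25.2% ± 0.162 in input. These ratios and shares hold no correction of enrichment for gene length. With the length correction described below, the log2 fold changes of *YTHDF1*, *YTHDF2* and *YTHDF3* were 0.73, 0.079 and 1.04, beside 0.57, -0.19 and 1.28 without it.

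**Figure D2:**
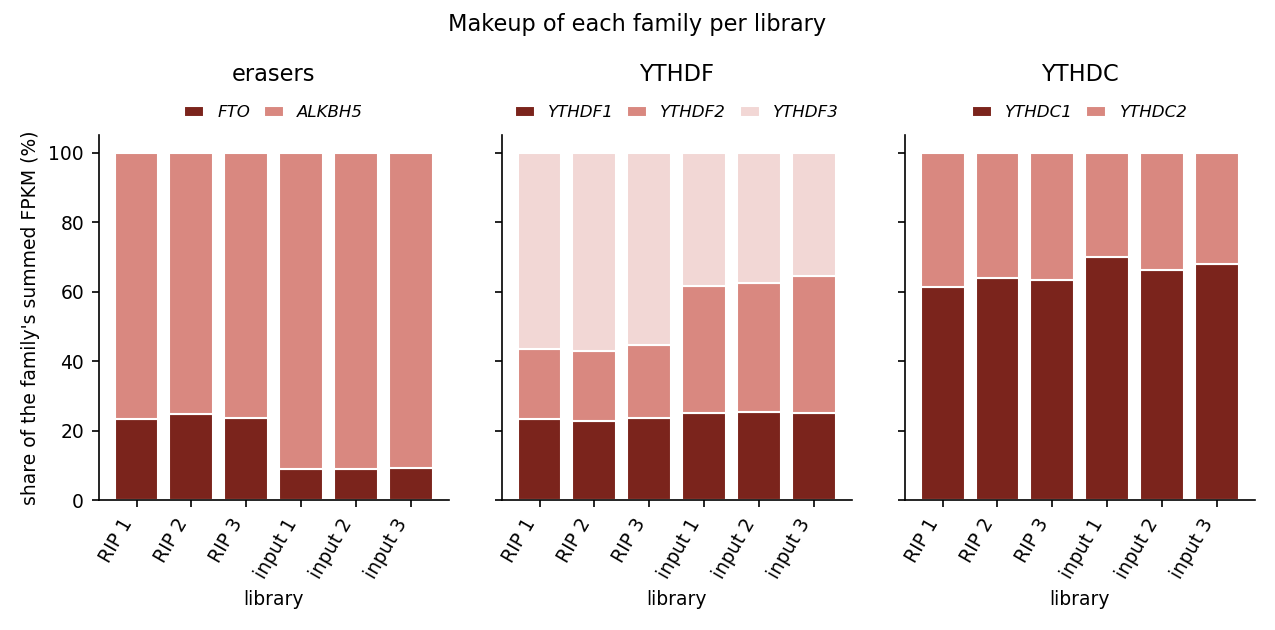
Share of each gene in the summed FPKM of its family (percent), for each RIP library and then each input library, in separate panels for erasers, YTHDF readers and YTHDC readers. *YTHDF3* makes up 56.2% of the YTHDF sum in RIP and 37.1% in input, and *FTO* 24.0% of the eraser sum in RIP and 9.23% in input.

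Neither YTHDC reader was enriched. *YTHDC1* (chromosome 4, 68310387 to 68350090) had 39.8, 45.1 and 40.7 CPM in RIP, against 56.6, 51.8 and 57.7 in input. The groups did not overlap, although this gene varied the most of the 7 within RIP, by 6.79%, where counting alone would give up to 2.81%. The log2 fold change was -0.40 (SE 0.073, edgeR adjusted p = 7.47e-07). *YTHDC2* (chromosome 5, 113513694 to 113595284) had the fewest reads of the 7, between 723 and 1072 per library. Its levels were 26.1, 26.6 and 24.6 CPM in RIP and 25.5, 27.5 and 28.4 in input, with overlapping groups. The log2 fold change was -0.072 (SE 0.058, edgeR adjusted p = 0.312). It was called depleted with upper-quartile scaling (-0.16, edgeR adjusted p = 0.0288), with library size alone (-0.31, edgeR adjusted p = 0.000162) and after the length correction (-0.44, edgeR adjusted p = 1.20e-06). The *YTHDC1* to *YTHDC2* ratio of FPKM was 1.69 ± 0.0946 in RIP and 2.13 ± 0.178 in input, lower in all 3 RIP libraries than in any input (log2 difference -0.33, SE 0.084).

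Fold changes of single genes depend on the scale, and the TMM factors were 0.915 to 0.923 for RIP libraries and 1.08 to 1.09 for inputs. The median log2 fold change of all tested genes was -0.024 with TMM, 0.00016 with RLE, -0.11 with upper-quartile scaling and -0.26 with library size alone. Enriched genes made up 49.2% of calls with TMM, 45.5% with upper-quartile scaling and 38.9% with library size alone. A change of scaling shifts all genes nearly alike, so distances from that median were bound to stay the same and are no check. On the log2 scale they were 1.65 for *FTO*, 1.31 for *YTHDF3*, 0.60 for *YTHDF1* and 0.019 for *ALKBH5*. For *YTHDC2*, *YTHDF2* and *YTHDC1* they were -0.048, -0.16 and -0.38. *FTO*, *YTHDF3* and *YTHDF1* were enriched, and *YTHDF2* and *YTHDC1* depleted, with each of these 4 scalings. Summed, the 7 genes came to 926 ± 2.74 CPM in RIP and 682 ± 11.9 in input without TMM. On that scale 3 of them were enriched and 4 depleted. The largest differences were those of *FTO* (238 CPM in RIP, 90.8 in input) and *YTHDF3* (315 and 153).

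**Figure D3:**
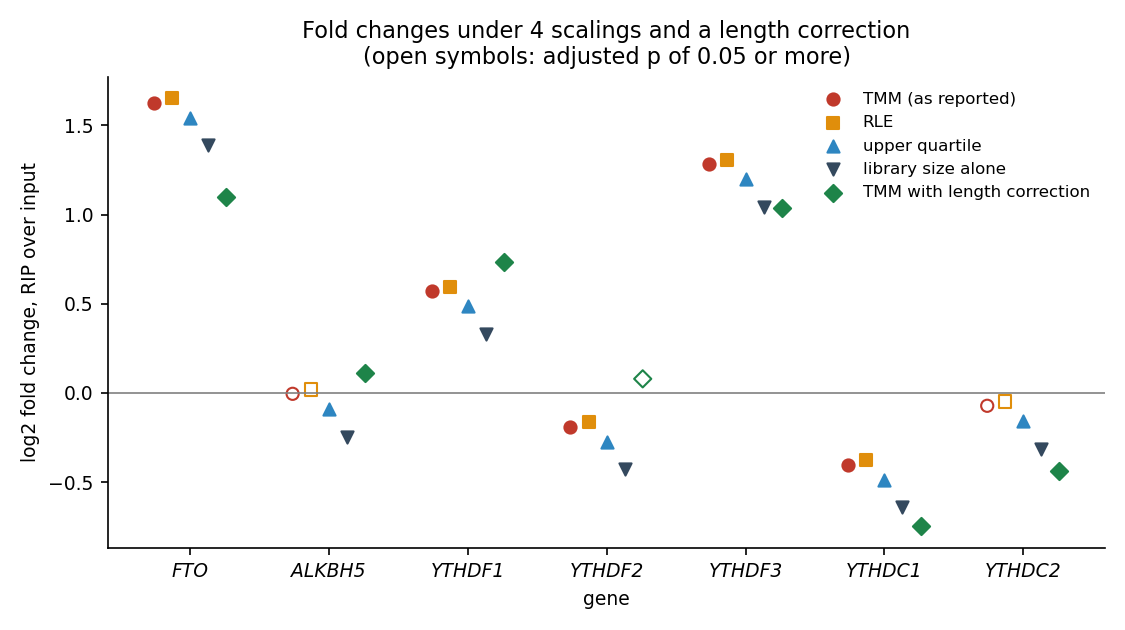
Log2 fold change of RIP over input for each gene under TMM, RLE, upper-quartile and library-size scaling and under TMM with a correction for gene length; filled symbols have an adjusted p under 0.05 and open ones do not. *FTO* and *YTHDF3* stay above 1 in all 5, whereas *ALKBH5* lies on both sides of 0, from -0.24 to 0.11.

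The order of abundance per length also differed between RIP and input. In RIP the mean FPKM were 57.8 ± 0.601 for *YTHDF3*, 51.6 ± 1.77 for *ALKBH5*, 24.0 ± 0.460 for *YTHDF1*, 21.2 ± 0.747 for *YTHDF2*, 16.3 ± 0.0922 for *FTO*, 6.15 ± 0.387 for *YTHDC1* and 3.63 ± 0.139 for *YTHDC2*. No neighbours in that order overlapped. In input the order was *ALKBH5* at 61.2 ± 0.831, *YTHDF2* at 28.5 ± 1.33, *YTHDF3* at 28.0 ± 1.36, *YTHDF1* at 19.1 ± 0.309, *YTHDC1* at 9.61 ± 0.504, *FTO* at 6.22 ± 0.234 and *YTHDC2* at 4.51 ± 0.277. There *YTHDF2* and *YTHDF3* overlapped and could not be ordered, and the other neighbours were apart. *FTO* thus lay above *YTHDC1* in RIP and below it in input, and *YTHDF3* was at the top in RIP and level with *YTHDF2* in input. Among all tested genes *FTO* lay above 78.7% in FPKM in RIP and above 51.2% in input, while *ALKBH5* lay above 93.7% and 93.9%. These FPKM use 1 length per gene, 14598 nt for *FTO*, and a level per length depends on the length chosen.

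Gene length moved with enrichment over the whole transcriptome, and its part in the results of single genes was examined only by correction. Across 12856 genes the Spearman correlation of log2 fold change with length was 0.435, a description over genes that share the same 6 libraries. The bins and the correction use the same 1 length per gene as the FPKM, 14598 nt for *FTO*, and depend on the length chosen. With the tested genes in 10 bins of length, *FTO* is in the longest (8850 nt and more), where the median log2 fold change was 0.56, and it stood 1.07 above that median. *YTHDF3*, at 5443 nt, stood 1.06 above the median of its bin and *YTHDF1*, at 3206 nt, 0.82 above. *YTHDF2* (2933 nt) and *ALKBH5* (3347 nt) are in the same bin as *YTHDF1*, with a median of -0.25, and lay 0.061 and 0.24 above it. The YTHDC genes lay below the median of their bin of 5558 to 6769 nt, in which 57.6% of genes were enriched, *YTHDC1* (6257 nt) by 0.77 and *YTHDC2* (6531 nt) by 0.44 below the median of 0.37.

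After a smooth curve of each library's deviation on length was removed, *FTO* kept a log2 fold change of 1.10 (edgeR adjusted p = 8.72e-18) and *YTHDF3* one of 1.04 (edgeR adjusted p = 5.97e-17). *YTHDF1* then stood at 0.73 and *YTHDC1* at -0.75. With that correction 4 of the 7 were enriched, 2 were depleted and *YTHDF2* was not called. The contrast between *FTO* and *YTHDF3* at the upper end and *YTHDC1* at the lower end was therefore present with and without the length trend.

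**Figure D4:**
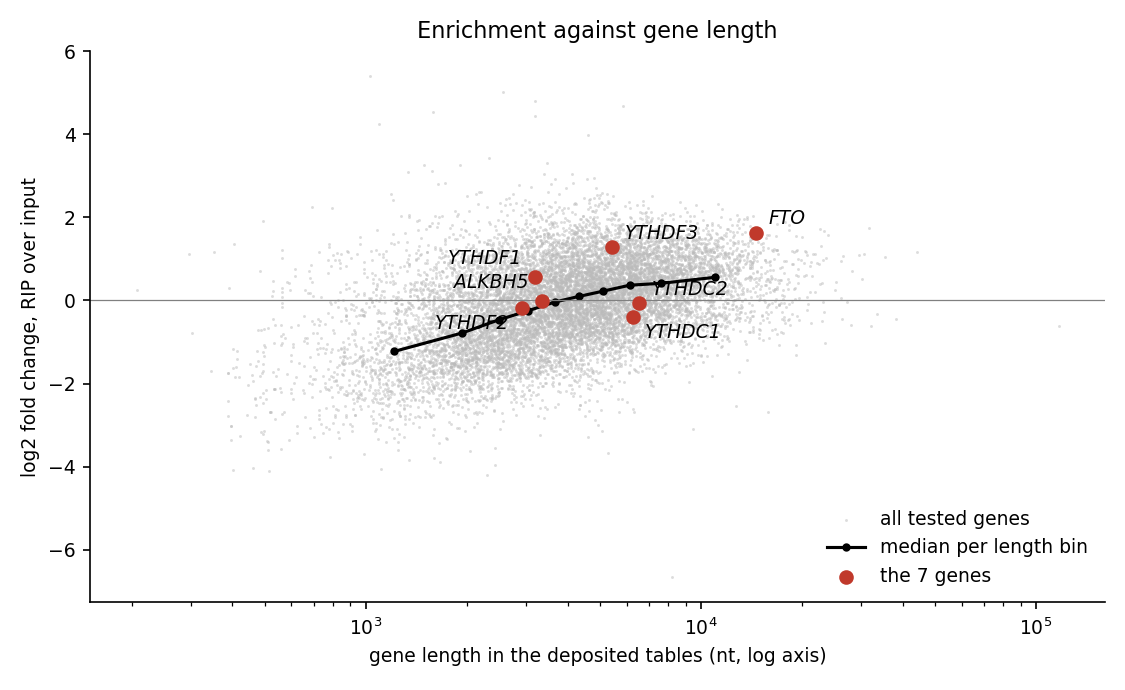
Log2 fold change of RIP over input against gene length in the deposited tables (log axis) for all 12856 tested genes in grey, with the median of each length bin as a black line and the 7 genes in red. *FTO*, *YTHDF3* and *YTHDF1* lie 0.82 to 1.07 above the median of their bin, and *YTHDC1* and *YTHDC2* lie 0.77 and 0.44 below theirs.

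Other genes of m6A metabolism were divided as well, and counts for each list below stand beside 40.7% enriched and 42.0% depleted among all tested genes. Of the 8 genes of the m6A methyltransferase complex 5 were enriched and 3 depleted, with a median log2 fold change of 0.17 that became -0.068 with library size alone, where 2 were enriched, 3 depleted and 3 not called. After the length correction 2 were enriched and 5 depleted, at a median of -0.20. *CBLL1*, an E3 ligase subunit, and *RBM15*, an RNA-binding subunit, rose 2.68-fold and 2.63-fold. The catalytic *METTL3* was 2.01-fold and the scaffold *VIRMA* 1.70-fold lower in RIP, and with the length correction their log2 fold changes were -0.33 and -1.16, beside -1.01 and -0.77 without it. These folds of *CBLL1* and *RBM15* stood between those of *FTO* and *YTHDF3*, and no difference between genes was tested here. After the length correction the log2 fold changes of *CBLL1* and *RBM15* were 1.30 and 1.24, both above *FTO* (1.10) and *YTHDF3* (1.04). Among 5 other genes for N6-adenosine methyltransferases and a cofactor, 1 was enriched, 3 depleted and 1 not called (median -0.80). *METTL16*, which methylates the U6 small nuclear RNA, rose 1.90-fold, while *TRMT112*, the cofactor, was 7.04-fold and *METTL5*, which methylates 18S ribosomal RNA, 2.97-fold lower. The length correction brought the log2 fold change of *TRMT112* to -1.40, beside -2.82 without it, and that of *METTL5* to -0.85, beside -1.57.

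The relatives of the erasers in the AlkB dioxygenase family included 5 depleted genes of 7, where 42.0% of all tested genes were depleted. Of the others 1 was enriched and 1 was not called, and the list had a median log2 fold change of -1.01. *ALKBH1* rose 2.12-fold, whereas *ALKBH7*, a mitochondrial member, was 4.65-fold and *ALKBH3*, a nucleic acid repair enzyme, 2.31-fold lower. Their median length was 1638 nt, against 3981 nt for all tested genes, and they ran from 1093 nt (*ALKBH7*) to 4501 nt (*ALKBH8*), across several bins. In the bin that holds the median length (1625 to 2223 nt) 64.4% of tested genes were depleted. The part of length in the count of 5 was examined only by the correction. After the length correction the list median was -0.30, with 1 enriched, 4 depleted and 2 not called, and *ALKBH7* stood at -0.99 and *ALKBH3* at -0.30, beside -2.22 and -1.21 without it. The log2 fold change of *FTO*, 1.63, stood beside 1.08 for *ALKBH1*, the highest of the 7 relatives. That order turned after the length correction, with *FTO* at 1.10 and *ALKBH1* at 1.49.

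RNA-binding proteins that have been linked to m6A without a YTH domain included 6 enriched and 5 depleted of 12, 1 not being called, with a median of 0.15. That median was -0.088 with library size alone and -0.21 after the length correction, which left 4 enriched and 6 depleted. *IGF2BP2*, the mRNA of the precipitated protein, and *IGF2BP3* rose 2.16-fold and 2.15-fold, beside 3.09-fold for *FTO* and 2.44-fold for *YTHDF3*. With the length correction these 4 lay closer together, at log2 fold changes of 0.991, 1.005, 1.10 and 1.04 in that order. *HNRNPA2B1* was 3.31-fold and *SND1* 2.02-fold lower. Their log2 fold changes were -2.12 and -0.93 after the length correction, beside -1.73 and -1.01 without it. Of 9 partners of the YTH proteins 2 were enriched, 6 depleted and 1 not called (median -0.35), where 40.7% of all tested genes were enriched and 42.0% depleted. After the length correction 1 partner was enriched, 6 were depleted and 2 were not called, at a median of -0.80. The exonuclease *XRN1*, a partner of YTHDC2, rose 1.74-fold, a log2 fold change of 0.80 that was 0.27 after the length correction. The splicing factor *SRSF10*, a partner of YTHDC1, rose 1.22-fold, a call lost with library size alone (log2 fold change 0.052, edgeR adjusted p = 0.298) and with the opposite sign after the length correction (-0.12, edgeR adjusted p = 0.0223). *SRSF3*, another splicing partner of YTHDC1, was 3.15-fold lower, with a log2 fold change of -1.77 after the length correction and -1.65 without it. *RIDA*, an adaptor of YTHDF2, was 4.41-fold lower but had only 3.10 CPM in RIP and 13.7 in input. Its log2 fold change was -0.84 after the length correction, beside -2.14 without it.

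**Figure D5:**
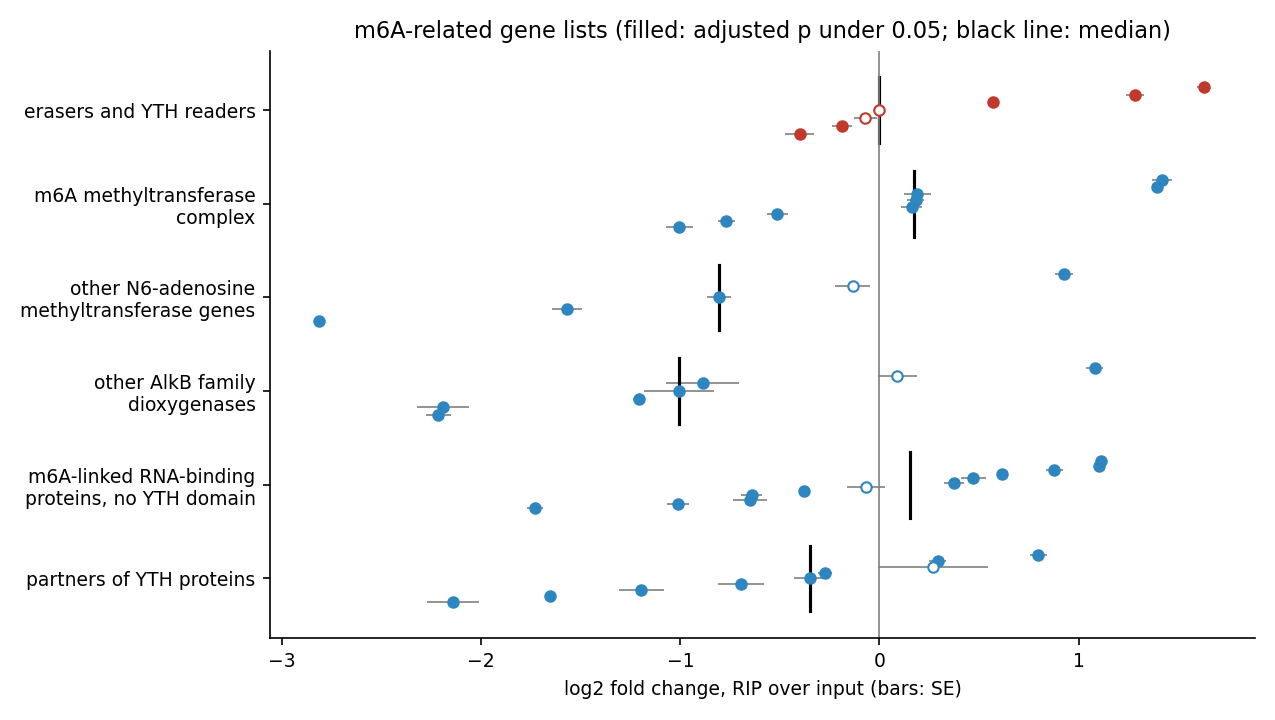
Log2 fold change of RIP over input with its SE for the 7 genes (red) and for 5 lists of m6A-related genes (blue); filled points have an adjusted p under 0.05 and black lines are list medians. The 7 genes run from -0.40 for *YTHDC1* to 1.63 for *FTO*, and the AlkB relatives centre at -1.01.

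For each of the 7, the nearest genes in pattern were found from log2 CPM centred on each gene's mean, by the root mean square difference over 6 libraries. *BNC2*, a zinc finger gene, and *OGFOD1*, another 2-oxoglutarate-dependent dioxygenase, were nearest to *FTO*, at 0.018 and 0.019. *DUSP18* and *HAVCR1*, the kidney injury molecule gene, were nearest to *YTHDF3* (0.019 and 0.020). *PPP1R2* and *DTL* were nearest to *YTHDF1* (both 0.019), *NOA1* and *ELP2* to *YTHDF2* (0.022 and 0.026), and *BICD2* and *MAPK9* to *ALKBH5* (0.015 and 0.024). *TERF1* and *ORC4* were nearest to *YTHDC1* (0.034 and 0.035), and *UBE2E2* and *AARS2* to *YTHDC2* (both 0.027). With 1 contrast in 6 libraries such likeness is common: of 9916 candidates, 297 lay within 0.1 of *FTO* and 952 within 0.1 of *YTHDF1*.

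Pseudogene copies of *FTO*, *YTHDF1*, *YTHDF2* and *YTHDF3* are listed in RefSeq as *FTOP1*, *YTHDF1P1*, *YTHDF2P1* and *YTHDF3P1* and are no rows of the count table. The labels do not say how reads with several alignments were treated, and reads shared with these copies could have been lost from, or added to, the 4 genes.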

How the data were processed

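The 6 RIP-seq libraries of 786-O cells, 3 RIP and 3 input, were grouped and numbered by their titles. Per the labels, the RNA was poly(A) RNA and a Tru-seq kit was used. The build is hg38, per the submitters' processing notes, which list DESeq2, featureCounts, STAR 2.7.10a and fastp 0.23.2. Annotation and strand setting were not given in the sources used here. The authors deposited raw read counts per gene symbol. They also deposited FPKM, which equal the counts divided by 1 whole gene length (to within 2.18e-10 nt) and by the column total, and these lengths were used here. The test was edgeR's quasi-likelihood test (edgeR 4.0.16 in R 4.3.3, robust, group as the only term) after filterByExpr and TMM, with Benjamini-Hochberg adjustment over all tested genes. SEs come from the spread of log2 CPM (prior count 2) between libraries. The test was tried on simulated counts in which most genes were unchanged, and the length correction on a simulated length trend without other changes. Here 82.7% of tested genes were called, so those trials do not show how either performs on these data. All 7 genes matched RefSeq (GRCh38.p14), which gave coordinates.

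The other settings tried were scaling by RLE, upper quartile or library size, no filter or 5 CPM in 3 libraries, DESeq2 1.42.0, limma-voom and limma (limma 3.58.1) on log2(FPKM + 1) or log2(FPKM + 0.1), a length correction (robust loess, span 0.3, used as offsets), the replicate block, testing for more than a 1.5-fold change, and leaving out each library. From each list up to 2 called genes per direction of at least 5 CPM with the largest change were named, and for each of the 7 genes the 2 nearest in pattern. Of the marker genes, 1 is not reported here. The genes and lists were chosen with earlier results of these data known. No replicates agreed within sampling noise (chi-square per gene 3.42 to 8.35, where noise alone gives about 1).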

Additional observations from a re-analysis of the deposited data

How the results depend on the processing

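*FTO* and *YTHDF3* kept their direction and their call under all 18 alternatives, with log2 fold changes of 1.10 to 1.66 and 1.02 to 1.33. The test against a 1.5-fold change asks for more than a difference from 0. It ended the calls of *YTHDF1* (0.57), *YTHDF2* (-0.19) and *YTHDC1* (-0.40), left 0 of the 7 depleted, and cut the calls over all genes to 2973 enriched and 3358 depleted. It left the methyltransferase complex with 2 enriched, the RNA-binding proteins without a YTH domain with 3 enriched and 2 depleted, and the YTH partners with 1 enriched.

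*ALKBH5* changed sign between settings. Its log2 fold change was 0.019 with RLE, 0.018 with DESeq2, 0.11 after the length correction, -0.091 with upper-quartile scaling and -0.24 with library size alone and in both fits on log2 FPKM (-0.241 and -0.245). *YTHDC2* was called depleted with upper-quartile scaling (-0.16), library size alone (-0.31), log2(FPKM + 1) (-0.25), log2(FPKM + 0.1) (-0.305) and the length correction (-0.44). *YTHDF2* turned to 0.079 after the length correction. In the 4 settings with lower scales, upper-quartile, library size alone and both on FPKM, 4 of the 7 were depleted and the complex had 2 enriched. The YTH partners had 1 enriched with library size alone, both FPKM fits and the length correction. After the length correction the complex had 2 enriched and 5 depleted, and with the filter of 5 CPM, which tests fewer genes, 3 AlkB relatives were depleted. Other causes were not tested.

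Without TMM, by library size alone, mean CPM in RIP and input were 238 and 90.8 for *FTO*, 173 and 205 for *ALKBH5*, 77.0 and 61.1 for *YTHDF1*, 62.0 and 83.5 for *YTHDF2*, 315 and 153 for *YTHDF3*, 38.5 and 60.1 for *YTHDC1*, and 23.7 and 29.5 for *YTHDC2*. Leaving out each library in turn kept 3 of the 7 enriched and 2 depleted, and *ALKBH5* ranged from -0.014 to 0.025, above 0 without RIP replicate 2 or input replicate 3. The 5 ratios moved by less than their spread when each library was left out. Taking them from TMM CPM or with the replicate block could hardly change them, since both give nearly the same difference by calculation. The length correction was not run for the ratios.

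The labels number RIP and input libraries alike, but same-numbered libraries did not deviate together (correlations 0.036, -0.046 and 0.035), and not every library correlated best with its own number. With the replicate block, 5210 genes were enriched and 5390 depleted, and *FTO* stood at 1.63, *YTHDF3* at 1.29 and *YTHDC1* at -0.40. No call among the 7 changed.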
